A study of Homo sapiens with 12 samples.

Results

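The 10 genes DUSP1, DUSP2, DUSP4, DUSP5, DUSP6, DUSP10, SPRY1, SPRY2, SPRED1 and SPRED2 encode feedback inhibitors of mitogen-activated protein kinase (MAPK) signalling. They were taken by symbol from the 63677 genes of the deposited count table, and each symbol had 1 identifier. RNA was sequenced from 3 derivatives of HPB-ALL, an established human line of T-cell acute lymphoblastic leukaemia. The TAL1 line (labelled T5) carried a lentiviral, doxycycline-inducible TAL1, the LMO1 line (labelled L4) LMO1, and the TAL1/LMO1 line (labelled C25) both. Each line was treated with doxycycline (DOX) or with DMSO, with 2 libraries per line and treatment, 12 in all. All lines had been infected, selected with a drug and grown in serum free of tetracycline. The sources used here name 1 line per construct, do not say whether a line was a clone or a pool, and give neither the dose nor the duration of DOX. No HPB-ALL cells without a transgene were among the 12 libraries, so DOX itself and the induced gene cannot be told apart.

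MAPKs are activated by dual phosphorylation, and the DUSP enzymes studied here (MAPK phosphatases) remove both phosphates. DUSP6 acts on ERK in the cytoplasm, DUSP5 on ERK in the nucleus, and DUSP10 prefers JNK and p38. DUSP1, DUSP2 and DUSP4 are nuclear and act on several MAPKs, and DUSP2 is best known from activated lymphocytes. Sprouty proteins (SPRY1, SPRY2) restrain growth factor signalling towards RAS and ERK, and SPRED proteins (SPRED1, SPRED2) bring neurofibromin, which switches RAS off, to the membrane. Many of these genes are transcribed in response to the pathway they restrain. In developing T cells, ERK signalling follows the T-cell receptor.

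Library totals lay between 14865073 and 15917713 counts. Levels are given as CPM, the count scaled to library size. In a library, 3 counts, the limit that a count of 0 allows, equal at most 0.198 CPM. With DOX, TAL1 averaged 39.2 CPM in the TAL1 line and 900 CPM in the TAL1/LMO1 line, and LMO1 averaged 226 CPM in the LMO1 line and 1539 CPM in the TAL1/LMO1 line. The single lines and the double line therefore differed in the level of each transgene as well as in their number. The T-cell markers CD3D (281 to 457 CPM), CD3E (89.7 to 691), CD3G (149 to 441), CD5 (54.4 to 307), LCK (231 to 469.5) and BCL11B (188 to 248.5) were present in every library. CD7 (2.62 to 316 CPM) was low in the LMO1 line, with means of 2.78 CPM with DMSO and 4.68 CPM with DOX. CD2 (0.327 to 7.74 CPM) was low throughout. TLX3, an oncogene known from HPB-ALL, lay between 304 and 432 CPM. Of 13 markers of other blood and tissue cells, MS4A1, HBB, HBA1, EPCAM and PECAM1 were at 0 throughout, and the 13 summed to 1.03 to 5.61 CPM in a library.

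The promoters of 8 of the 10 members were matched by symbol in RefSeq (GRCh38.p14), as 13 windows of 300 bases, 250 before an annotated start and 50 after it. For the member that rose most with DOX in the TAL1/LMO1 line, DUSP6, and the pair that fell, DUSP2 and DUSP1, the 250 bases before the start are shown on the gene's strand. They lie at chr12:89352502-89352751, chr2:96145441-96145690 and chr5:172771196-172771445, each on the minus strand. Capitals mark a MYC-type E-box (CACGTG) in DUSP2 and a cyclic AMP response element (TGACGTCA) in DUSP1. The DUSP1 stretch holds CACGTG as well, left in small letters.
DUSP6: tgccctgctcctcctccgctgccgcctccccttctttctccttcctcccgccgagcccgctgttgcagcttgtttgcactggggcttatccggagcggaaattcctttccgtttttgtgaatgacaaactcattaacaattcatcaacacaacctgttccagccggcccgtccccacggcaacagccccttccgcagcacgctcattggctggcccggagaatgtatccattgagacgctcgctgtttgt
DUSP2: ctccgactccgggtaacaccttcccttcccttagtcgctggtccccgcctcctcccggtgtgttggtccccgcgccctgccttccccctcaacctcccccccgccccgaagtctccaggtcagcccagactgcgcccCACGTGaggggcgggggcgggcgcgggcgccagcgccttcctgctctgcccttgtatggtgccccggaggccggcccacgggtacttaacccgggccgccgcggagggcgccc
DUSP1: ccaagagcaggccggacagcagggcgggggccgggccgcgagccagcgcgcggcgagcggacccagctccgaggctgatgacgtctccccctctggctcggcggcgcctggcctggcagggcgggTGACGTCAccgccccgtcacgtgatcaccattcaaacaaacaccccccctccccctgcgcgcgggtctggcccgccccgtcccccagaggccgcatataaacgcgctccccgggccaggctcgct
G and C made up 57.2% of the DUSP6 stretch, 74% of that of DUSP2 and 74.4% of that of DUSP1. Motifs were searched on both strands of the 300-base windows. The E-box CANNTG, the kind of site that TAL1 binds with its partners, was in 7 of the 13 member windows (of DUSP1, DUSP2, DUSP10, SPRED2, SPRY1 and SPRY2) and in 68.7% of all 35116 windows. The DUSP6 window held none. CACGTG, which CANNTG includes, was in the windows of DUSP2 and DUSP1 and in 7.26% of all windows. TGACGTCA was in the DUSP1 window and in 1.85% of all. The RUNX motif TGTGGT (13.1% of all windows) and the AP-1 motif TGANTCA (7.71%) were in a SPRED2 window, and the ETS motif CCGGAAG (10.3%) in an SPRY1 window. The GATA motif AGATAA (10.3%) was in none of the 13. These are matches of letters, and binding was not measured.

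SPRED1 was listed at 0 in all 12 libraries. Mitochondrial mRNAs, which every cell makes, were listed at 0 too, so no level is read from this. The other 9 members were tested with edgeR's quasi-likelihood test, on 16287 genes, and calls were made where the p adjusted over all of them (Benjamini-Hochberg) was under 0.05. All p-values below are adjusted in this way unless named otherwise. The labels do not say that replicates were separate cultures, so the p-values may rest on technical spread alone.

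In the TAL1/LMO1 line, 5 members rose with DOX (DUSP6, SPRY1, DUSP10, SPRY2 and SPRED2) and 2 fell (DUSP2 and DUSP1). DUSP4 and DUSP5 were not called. Of all tested genes, 60.2% were called in this comparison, 28.5% higher and 31.7% lower, so 7 called of 9 is not far from the share of all genes. Which direction held more of all genes depended on the scaling. With total counts 5611 genes were called higher and 4277 lower, beside 4644 and 5168 in the main fit. The libraries of the 2 treatments did not overlap for 7 of the 9 members, beside 78.2% of all tested genes. The median log2 fold change of the 9 members was 0.41, and that of all tested genes -0.01. In bulk RNA, fewer cells of a type and less RNA per cell cannot be told apart.

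**Figure D1:**
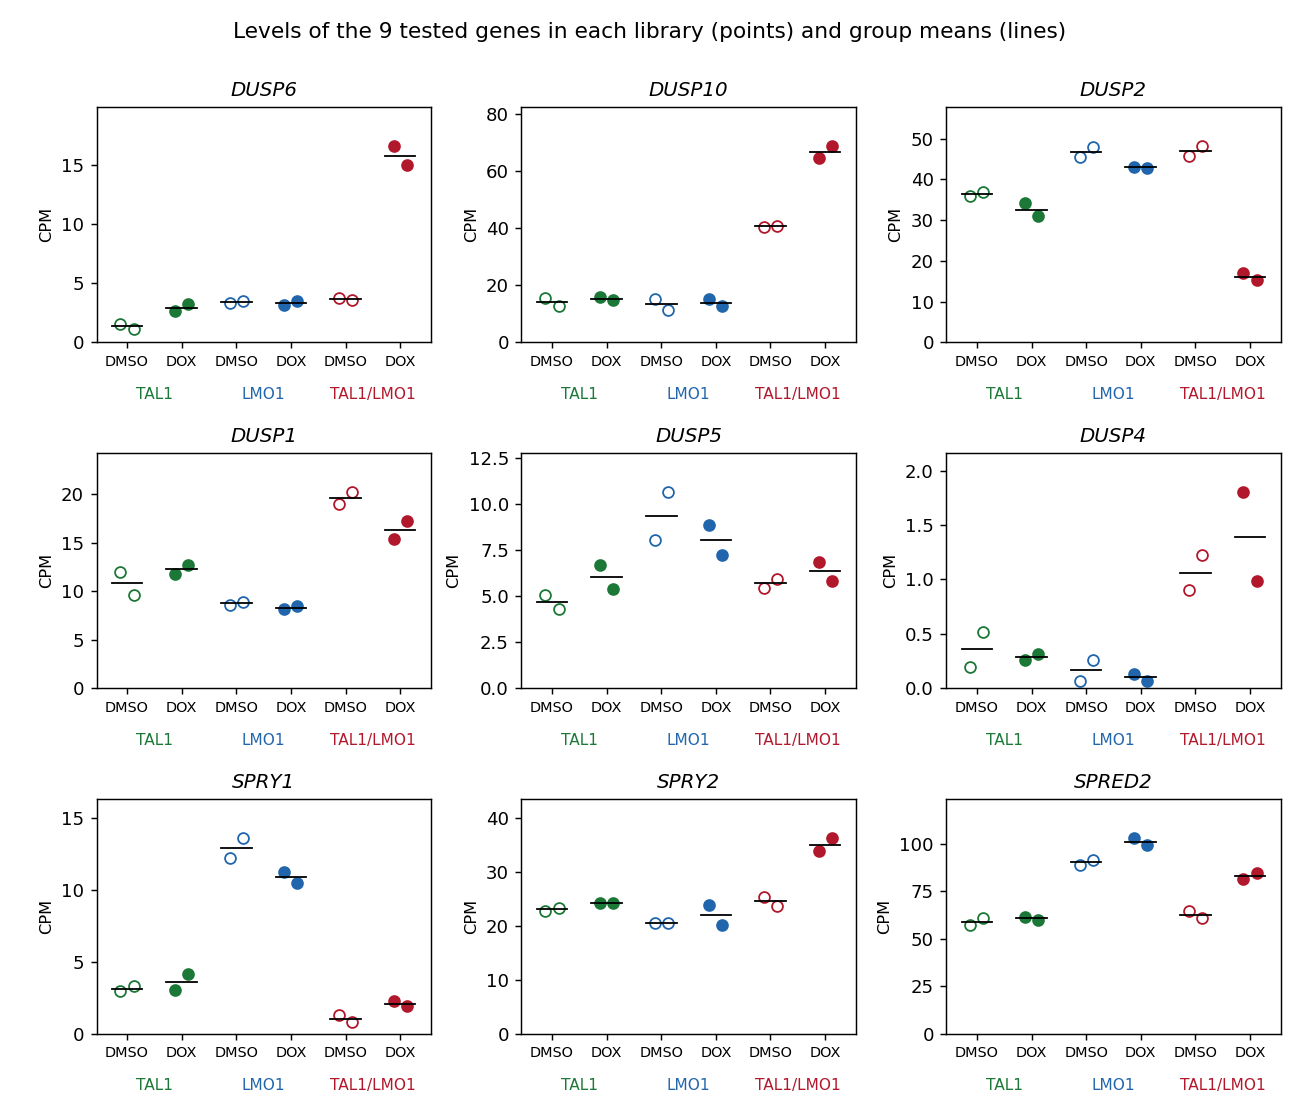
Level of each tested member in CPM (vertical axis, its own scale in each panel) in the 6 groups (horizontal axis); points are the 2 libraries of a group and bars their mean. DUSP6 stood highest in the TAL1/LMO1 line with DOX (14.9 and 16.5 CPM), where DUSP2 stood lowest (15.2 and 17.0 CPM).

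DUSP6, the cytoplasmic ERK phosphatase, changed most. In the TAL1/LMO1 line its libraries were at 3.72 and 3.54 CPM with DMSO (3.63 ± 0.13, SD, n = 2) and at 16.5 and 14.9 CPM with DOX (15.7 ± 1.1). Both DOX libraries stood above every other library of the study. The rise was 4.32-fold (log2 2.11, SE 0.15, adjusted p = 9.35e-21). In the authors' deposited table the log2 fold change was 2.11, with an adjusted p of 5.8e-16. An antisense transcript overlaps exons of DUSP6 in GENCODE 29. The libraries were strand-specific per the labels, but no source used here says whether counting used the strand, so reads of the antisense transcript cannot be told apart.

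DUSP10, the phosphatase of JNK and p38, rose less in fold. In the same line it went from 40.5 and 40.8 CPM (40.7 ± 0.20) to 64.4 and 68.5 CPM (66.5 ± 2.9). The groups did not overlap, and the change was 1.63-fold (log2 0.71, SE 0.08, adjusted p = 3.37e-13).

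DUSP2 moved the other way. It was at 45.9 and 48.1 CPM (47.0 ± 1.6) with DMSO and at 17.0 and 15.2 CPM (16.1 ± 1.2) with DOX. The DOX libraries were the lowest of all 12, 2.92-fold under their DMSO libraries (log2 -1.55, SE 0.08, adjusted p = 1.76e-27). DUSP1, an immediate early gene in many cells, was at 19.0 and 20.2 CPM (19.6 ± 0.87) with DMSO and at 15.4 and 17.3 CPM (16.3 ± 1.3) with DOX. Its groups did not overlap, but the fall was small (log2 -0.26, SE 0.10, adjusted p = 0.0235). The call of DUSP1 was lost with library sizes scaled to total counts (log2 -0.17, adjusted p = 0.163), with DESeq2 (log2 -0.26, adjusted p = 0.196), without DOX replicate 1 of this line (log2 -0.20, adjusted p = 0.165) and without its DMSO replicate 2 (log2 -0.23, adjusted p = 0.131). In the authors' deposited table its adjusted p was 0.239.

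Among the Sprouty and SPRED genes, those with many counts gave close replicates and modest rises. SPRY2 went from 25.4 and 23.8 CPM (24.6 ± 1.2) to 33.8 and 36.3 CPM (35.0 ± 1.8). No DOX library overlapped DMSO (log2 0.51, SE 0.08, adjusted p = 1.5e-07). SPRED2 went from 64.4 and 60.8 CPM (62.6 ± 2.5) to 81.2 and 84.8 CPM (83 ± 2.6), again without overlap (log2 0.41, SE 0.06, adjusted p = 1.46e-08).

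SPRY1 had few counts in this line. Its DMSO libraries held 20 and 13 counts (1.28 and 0.837 CPM, 1.06 ± 0.32) and its DOX libraries 37 and 31 counts (2.30 and 1.90 CPM, 2.10 ± 0.28). The fitted log2 fold change was 0.98 (SE 0.31, adjusted p = 0.00451). Both DOX libraries exceeded both DMSO libraries, but the call was lost without DMSO replicate 2 (log2 0.69, adjusted p = 0.107) or without DOX replicate 1 (log2 0.82, adjusted p = 0.0567). The authors' deposited table gives SPRY1 the same log2 fold change, 0.98, with an adjusted p of 0.186.

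DUSP5 and DUSP4 complete the set. DUSP5, the nuclear ERK phosphatase, was at 5.45 and 5.92 CPM with DMSO and at 6.83 and 5.84 CPM with DOX, and these overlapped (log2 0.15, SE 0.17, adjusted p = 0.443). Its 95% interval, -0.18 to 0.49, holds neither a doubling nor a halving. DUSP4 had 14 and 19 counts with DMSO and 29 and 16 with DOX, which also overlapped (log2 0.39, SE 0.38, adjusted p = 0.391). Its interval, -0.38 to 1.15, holds a doubling but not a halving, so at this depth a rise of up to about that size was not excluded.

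In the TAL1 line, DUSP6 alone of the 9 members was called, where 1.84% of all tested genes were. Its DMSO libraries held 24 and 18 counts (1.57 and 1.16 CPM, 1.37 ± 0.29) and its DOX libraries 40 and 51 counts (2.62 and 3.23 CPM, 2.93 ± 0.44). The DOX libraries lay above the DMSO libraries and below all 4 of the TAL1/LMO1 line. The rise was 2.14-fold (log2 1.09, SE 0.27, adjusted p = 0.0136). Without DMSO replicate 2 the log2 fold change was 0.89 (adjusted p = 0.301), and without DOX replicate 2 it was 0.93 (adjusted p = 0.215). DESeq2 gave 1.09 with an unadjusted p of 0.0012 and no adjusted p, and in the authors' deposited table the unadjusted p was 0.0207 and the adjusted p 1.

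The other 8 members gave log2 fold changes between -0.30 and 0.37 in the TAL1 line. DUSP2 was at 35.9 and 37.0 CPM with DMSO and at 34.2 and 30.9 CPM with DOX (log2 -0.16, SE 0.08, adjusted p = 0.378). DUSP5 was at 5.05 and 4.27 CPM with DMSO and at 6.68 and 5.39 CPM with DOX (log2 0.37, SE 0.18, adjusted p = 0.385). Neither of these overlapped between treatments, and neither passed the test. In this line 4 of the 9 members did not overlap between treatments, beside 42% of all tested genes. DUSP10 (15.6 and 12.7 against 15.8 and 14.9 CPM) and SPRY1 (2.95 and 3.30 against 3.08 and 4.19 CPM) overlapped. The median of the 9 members was 0.12, beside 0 for all tested genes.

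In the LMO1 line, edgeR called 0 of the 9 members, where 2.14% of all tested genes were called. DESeq2 gave an adjusted p to SPRED2 alone of the 9 and did not call it, so it adds nothing on the others. DUSP6 was level, at 3.34 and 3.52 CPM with DMSO and at 3.17 and 3.51 CPM with DOX (log2 -0.04, 95% interval -0.46 to 0.38). SPRED2 alone had an unadjusted p under 0.05 by edgeR. It stood at 88.8 and 91.5 CPM with DMSO and at 103 and 99.0 CPM with DOX (log2 0.16, SE 0.06, adjusted p = 0.144). SPRY1, at 12.2 and 13.6 CPM with DMSO and at 11.3 and 10.5 CPM with DOX, lay lower without overlap (log2 -0.25, SE 0.13, adjusted p = 0.441). Here too 4 of the 9 members did not overlap between treatments, beside 41.1% of all tested genes. The median of the 9 was -0.07, beside 0.00 for all tested genes.

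**Figure D2:**
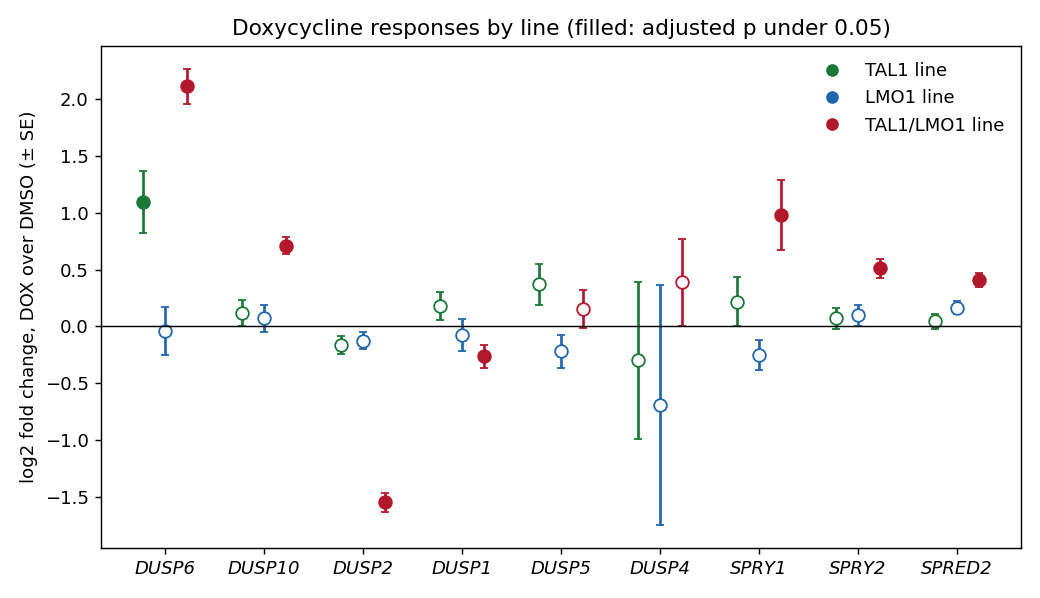
Log2 fold change, DOX over DMSO, of each tested member (vertical axis) in the TAL1, LMO1 and TAL1/LMO1 lines; bars are standard errors and filled points have an adjusted p under 0.05. DUSP6 at 2.11 and DUSP2 at -1.55 in the TAL1/LMO1 line lie farthest from 0 among the filled points.

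The responses of the lines were compared within the same model. The response of the TAL1/LMO1 line enters each comparison with a single line, so these comparisons share libraries. Against the TAL1 line, 6 of 9 members differed in response, where 43.8% of all tested genes did. DUSP6 rose by 1.02 more on the log2 scale (SE 0.33, adjusted p = 0.00879), and DUSP2 was lower by -1.38 (SE 0.12, adjusted p = 2.59e-17). The difference of DUSP6 was lost without DMSO replicate 1 of the TAL1 line (log2 0.78, adjusted p = 0.162) and without its DOX replicate 1 (log2 0.85, adjusted p = 0.0525). DUSP10 (log2 0.59), SPRY2 (log2 0.44) and SPRED2 (log2 0.36) responded more strongly, with adjusted p between 0.000193 and 0.00207. DUSP1 differed by -0.44 (SE 0.16, adjusted p = 0.0185). That call was lost with DESeq2 (adjusted p = 0.134) and without DOX replicate 1 or DMSO replicate 2 of the TAL1/LMO1 line or replicate 2 of either treatment of the TAL1 line (log2 -0.41 to -0.31, adjusted p 0.0601 to 0.179). SPRY1 did not pass (log2 0.76, SE 0.38, adjusted p = 0.0971), except without DOX replicate 2 of the TAL1 line (log2 0.99, adjusted p = 0.0461).

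Against the LMO1 line, again 6 of 9 members differed, where 45.4% of all tested genes did. DUSP6 differed by 2.15 (SE 0.27, adjusted p = 1.55e-10) and DUSP2 by -1.42 (SE 0.11, adjusted p = 1.46e-18). The Sprouty genes were SPRY1 with 1.23 (SE 0.33, adjusted p = 0.00154) and SPRY2 with 0.41 (SE 0.13, adjusted p = 0.00471). DUSP10 differed by 0.64 (SE 0.14, adjusted p = 8.81e-05), and SPRED2 by 0.24 (SE 0.08, adjusted p = 0.0131). The difference of SPRED2 was lost without the filter on low counts (adjusted p = 0.0692) and without replicate 2 of any 1 of the 4 groups (log2 0.19 to 0.21, adjusted p 0.0655 to 0.108). That of SPRY2 was lost without DOX replicate 2 of the LMO1 line (log2 0.28, adjusted p = 0.0971). Between the TAL1 and LMO1 lines, edgeR called 0 of 9 members (0.939% of all tested genes), and DESeq2 called 0. DUSP6 (log2 1.13, unadjusted p = 0.00152, adjusted p = 0.115) and DUSP5 (log2 0.59, unadjusted p = 0.0137, adjusted p = 0.419) were the 2 with an unadjusted p under 0.05 by edgeR. The rise of DUSP6 in the TAL1 line was thus not shown to differ from the LMO1 line.

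The response of the TAL1/LMO1 line was also set against the sum of the responses of both single lines on the log2 scale. Of 9 members 4 departed from the sum, where 34.7% of all tested genes did. DUSP2 fell further than the sum (log2 -1.26, SE 0.14, adjusted p = 2.44e-12). DUSP6 (log2 1.06, SE 0.39, adjusted p = 0.0285), SPRY1 (log2 1.01, SE 0.40, adjusted p = 0.0407) and DUSP10 (log2 0.52, SE 0.18, adjusted p = 0.0174) rose further. With DESeq2 only DUSP2 was called, and the adjusted p-values of DUSP6, SPRY1 and DUSP10 were 0.0951, 0.116 and 0.0707. Leaving out 1 library ended the call of DUSP6 for 6 of the 12 libraries (log2 0.82 to 1.01), that of SPRY1 for 6 (log2 0.73 to 0.95) and that of DUSP10 for 4 (log2 0.30 to 0.47). These were libraries of all 3 lines for DUSP6 and SPRY1, and of the single lines for DUSP10. The call of DUSP2 was kept in each case. SPRY2 (log2 0.34, adjusted p = 0.0784) passed only with total counts (adjusted p = 0.0387) or without DOX replicate 1 of the LMO1 line (adjusted p = 0.03). SPRED2 (log2 0.20, adjusted p = 0.145) and DUSP1 (log2 -0.37, adjusted p = 0.18) did not pass, and DUSP5 gave 0.00 with a 95% interval from -0.60 to 0.61. The transgenes reached different levels in the single and double lines, and the part of this in the departures was not tested.

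The lines also differed before induction. With DMSO, 6 of 9 members differed between the TAL1/LMO1 and TAL1 lines (45.4% of all tested genes), 7 between the TAL1/LMO1 and LMO1 lines (41% of all) and 5 between the LMO1 and TAL1 lines (36.4% of all). SPRY1 spanned most. Its DMSO means were 12.9 CPM (± 0.97) in the LMO1 line, 3.13 CPM (± 0.25) in the TAL1 line and 1.06 CPM (± 0.32) in the TAL1/LMO1 line, with no overlap. It was 4.13-fold higher in the LMO1 than in the TAL1 line (log2 2.05, SE 0.17, adjusted p = 1.05e-17). The TAL1/LMO1 line held 12.1-fold less than the LMO1 line (log2 -3.60, SE 0.26, adjusted p = 2.76e-25). The difference of SPRY1 between lines was therefore larger than its response to DOX in any of them.

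DUSP10 with DMSO was 2.88-fold higher in the TAL1/LMO1 line than in the TAL1 line (log2 1.52, SE 0.10, adjusted p = 3.77e-23) and 3.06-fold higher than in the LMO1 line (log2 1.62, SE 0.10, adjusted p = 3.6e-24). Its libraries in the LMO1 line, 15.1 and 11.5 CPM, overlapped those of the TAL1 line. DUSP1 was likewise highest in the TAL1/LMO1 line, by 0.86 (SE 0.11) and 1.16 (SE 0.12) on the log2 scale over the TAL1 and LMO1 lines, with adjusted p of 8.39e-10 and 8.85e-14. DUSP4 was detected best there too, with 14 and 19 counts in the DMSO libraries against 3 and 8 in the TAL1 line and 1 and 4 in the LMO1 line. Its adjusted p was 0.0109 against the TAL1 line, lost with DESeq2 (0.144), without DMSO replicate 1 of the TAL1 line (0.203) and without DMSO replicate 2 of the TAL1/LMO1 line (0.122). It was 0.000282 against the LMO1 line.

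DUSP6 with DMSO was lowest in the TAL1 line. On the log2 scale the LMO1 line was higher by 1.32 (SE 0.26, adjusted p = 2.04e-05) and the TAL1/LMO1 line by 1.40 (SE 0.26, adjusted p = 3.46e-06). Its DOX level in the TAL1 line, 2.93 CPM, overlapped the LMO1 line with DOX and stayed below both libraries of the TAL1/LMO1 line with DMSO. DUSP2 with DMSO was lower in the TAL1 line than in both others, by 0.36 and 0.37 on the log2 scale, with adjusted p of 4.47e-05 and 2.32e-05. DUSP5 (log2 1.0, adjusted p = 5.82e-07) and SPRED2 (log2 0.61, adjusted p = 4.64e-14) were higher in the LMO1 than in the TAL1 line. Against the LMO1 line, DUSP5 (log2 -0.72, adjusted p = 0.000127) and SPRED2 (log2 -0.53, adjusted p = 1.1e-11) were lower in the TAL1/LMO1 line. SPRY2 was higher there by 0.26 on the log2 scale (adjusted p = 0.017), a call lost with DESeq2 (adjusted p = 0.123), without either DMSO replicate of the LMO1 line (0.0696 and 0.0672) and without DMSO replicate 1 of the TAL1/LMO1 line (0.157).

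**Figure D3:**
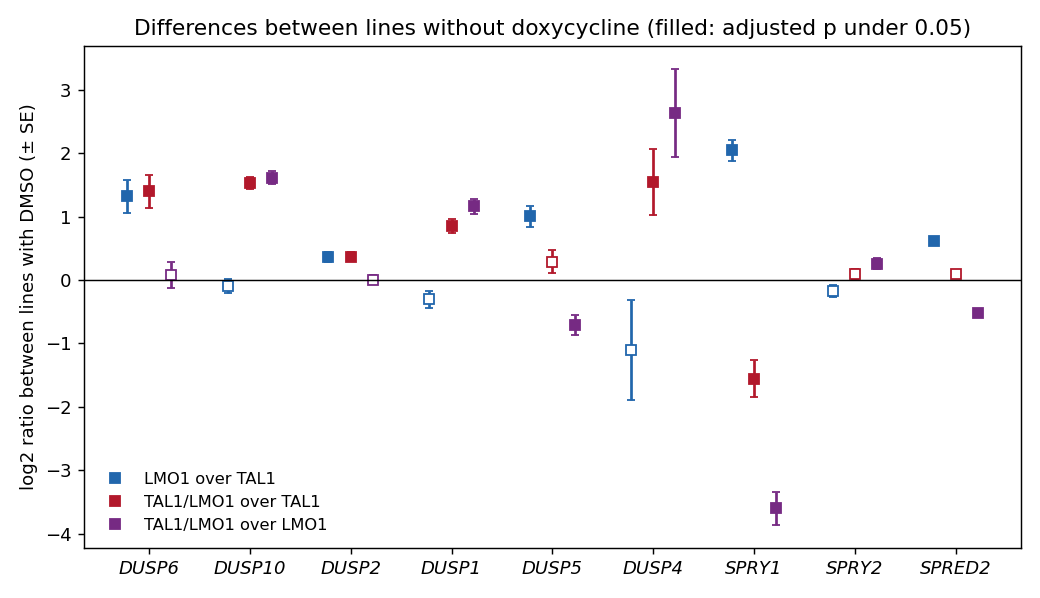
Log2 ratio between lines in the DMSO libraries (vertical axis) for each tested member; bars are standard errors and filled squares have an adjusted p under 0.05. SPRY1 lies at -3.60 for the TAL1/LMO1 over the LMO1 line and at 2.05 for the LMO1 over the TAL1 line.

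Transcripts of the gene that each line carried, whether from the transgene or the cell's own copy, were present without DOX in all 3 lines. TAL1 with DMSO was at 4.06 and 3.88 CPM in the TAL1 line and at 3.08 and 7.34 CPM in the TAL1/LMO1 line (adjusted p = 0.532). LMO1 with DMSO was at 3.93 and 1.76 CPM in the LMO1 line and at 0.449 and 6.89 CPM in the TAL1/LMO1 line (adjusted p = 0.802). In the LMO1 line with DMSO, TAL1 held 4 and 0 counts, lower than in the TAL1 (adjusted p = 0.00964) and TAL1/LMO1 lines (adjusted p = 0.00412). In the TAL1 line with DMSO, LMO1 held 1 and 5 counts, without a call against the LMO1 (adjusted p = 0.167) or TAL1/LMO1 line (adjusted p = 0.0959). The source of the transcripts without DOX, and their part in the differences before induction, was not tested. With 1 line per construct, the construct and the line cannot be told apart.

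Across all 6 groups, SPRY1 and DUSP6 had a highest group mean 12.2 and 11.5 times the lowest. No such ratio is given for DUSP4, whose lowest group (the LMO1 line with DOX) held 2 and 1 counts. DUSP10 (5.01 times), DUSP2 (2.92), DUSP1 (2.36) and DUSP5 (2.0) followed, and SPRED2 (1.72) and SPRY2 (1.71) varied least of these 8. Levels of different genes were compared as CPM per kilobase of exon. On that scale DUSP2 reached 24.3 in the TAL1/LMO1 line with DMSO, DUSP10 22.8 in that line with DOX, and SPRED2 19.6 in the LMO1 line with DOX. SPRY2 peaked at 11.5 and DUSP1 at 9.71, DUSP5, DUSP6 and SPRY1 at 3.57, 3.39 and 3.26, and DUSP4 did not pass 0.192. The RNA of DUSP6, the member with the largest fold rise, thus stayed well below that of DUSP2 and DUSP10 per length even at its peak.

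The order of the groups differed between members. For DUSP10 the 4 groups of the single lines overlapped from neighbour to neighbour, between 11.5 and 15.8 CPM, while both groups of the TAL1/LMO1 line stood apart above them. For SPRED2 the LMO1 line held the top, with 101 CPM with DOX and 90.2 CPM with DMSO, above the DOX group of the TAL1/LMO1 line, and of the TAL1 line the DOX group overlapped the DMSO group of the TAL1/LMO1 line, while its DMSO group lay just below. For SPRY2 the 2 highest groups were those of the TAL1/LMO1 line, of which the DMSO group (23.8 to 25.4 CPM) overlapped the TAL1 line with DOX (24.2 and 24.3 CPM). For DUSP1 the 2 highest were likewise those of the TAL1/LMO1 line and the 2 lowest those of the LMO1 line, at 8.18 to 8.93 CPM. For DUSP5 both groups of the LMO1 line led, and they overlapped each other.

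Other genes of the pathway were read from lists chosen by role. The calls of each list in the TAL1/LMO1 line stand beside 60.2% of all tested genes called there. Of 15 further MAPK phosphatases and feedback inhibitors, 10 were tested, and in the TAL1/LMO1 line 5 rose and 4 fell with DOX (median log2 fold change 0.02). RASAL3, a RAS-inactivating protein of blood cells, rose from 65.6 to 148 CPM (log2 1.17, SE 0.06). PEBP1, an inhibitor of RAF, fell from 204 to 131 CPM (log2 -0.64), and DUSP7, a close relative of DUSP6, from 29.5 to 17.5 CPM (log2 -0.75). LZTR1, which promotes the breakdown of RAS proteins, rose by 0.40 on the log2 scale. RASAL3 also rose in the TAL1 line (log2 0.27, adjusted p = 0.0266). That call was lost with DESeq2, where a missing adjusted p counts as no call. PEBP1 fell in the LMO1 line (log2 -0.21, adjusted p = 0.00361). These were the only calls of the list in each single line. Of 7 tested atypical dual-specificity phosphatases, most of which are not MAPK phosphatases, 2 rose (DUSP18 by 0.66 and DUSP14 by 0.33 on the log2 scale), 2 fell (DUSP12, log2 -0.44, and DUSP3, log2 -0.37), and none was called in a single line.

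In the RAS-ERK cascade, all 23 genes were tested, and in the TAL1/LMO1 line 10 rose, 7 fell and 6 were not called (median 0.08). Of all tested genes, 60.2% were called there. RASGRP1, an activator of RAS in T cells, rose from 196 to 332 CPM (log2 0.76), while its relative RASGRP2 fell from 101 to 59.8 CPM (log2 -0.76). The adaptor GAB2 rose from 110 to 186 CPM (log2 0.76) and the exchange factor SOS2 from 64.6 to 98 CPM (log2 0.60). RASGRP1 was called in the TAL1 line (log2 0.18, adjusted p = 0.0443), a call lost when edgeR used the size factors of DESeq2, and GAB2 in the LMO1 line (log2 0.41, adjusted p = 0.00196), each as the only gene of the cascade. Of 12 tested genes of the JNK and p38 cascade, which holds the kinases that DUSP10 acts on, 4 rose and 6 fell (median -0.15). The p38 kinases MAPK14 (128 to 355 CPM, log2 1.48) and MAPK11 (27.6 to 50.2 CPM, log2 0.86) rose, MAPKAPK2, a kinase downstream of p38, rose (log2 0.53) and its relative MAPKAPK3 fell (log2 -0.81). None of the 12 was called in a single line.

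All 12 tested genes of 15 known to respond to ERK were called in the TAL1/LMO1 line, 8 higher and 4 lower (median 0.93), where 60.2% of all tested genes were called. EGR2 rose from 0.514 to 4.91 CPM (log2 3.24) and FOS from 1.70 to 6.18 CPM (log2 1.85). Both are transcription factors of the immediate early response, and so is EGR1, which rose too (log2 3.24). MYC, a driver of growth, fell (log2 -3.49). EPHA2, a receptor kinase, was the only gene of this list called in the LMO1 line, where it rose from 25.6 to 47.2 CPM (log2 0.88, adjusted p = 8.02e-13). In the TAL1/LMO1 line EPHA2 fell, from 2.89 to 1.58 CPM (log2 -0.87, adjusted p = 0.00216). DESeq2 called 0 genes of the list in the LMO1 line, but a missing adjusted p counts as no call. In that comparison DESeq2 gave no adjusted p to DUSP2, which had more counts over all libraries than EPHA2 (6855 against 4235). In the TAL1 line none of the 12 genes was called. Genes of this list thus moved in both directions, as the DUSP genes did. The phosphorylation of ERK, JNK and p38 was not measured.

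**Figure D4:**
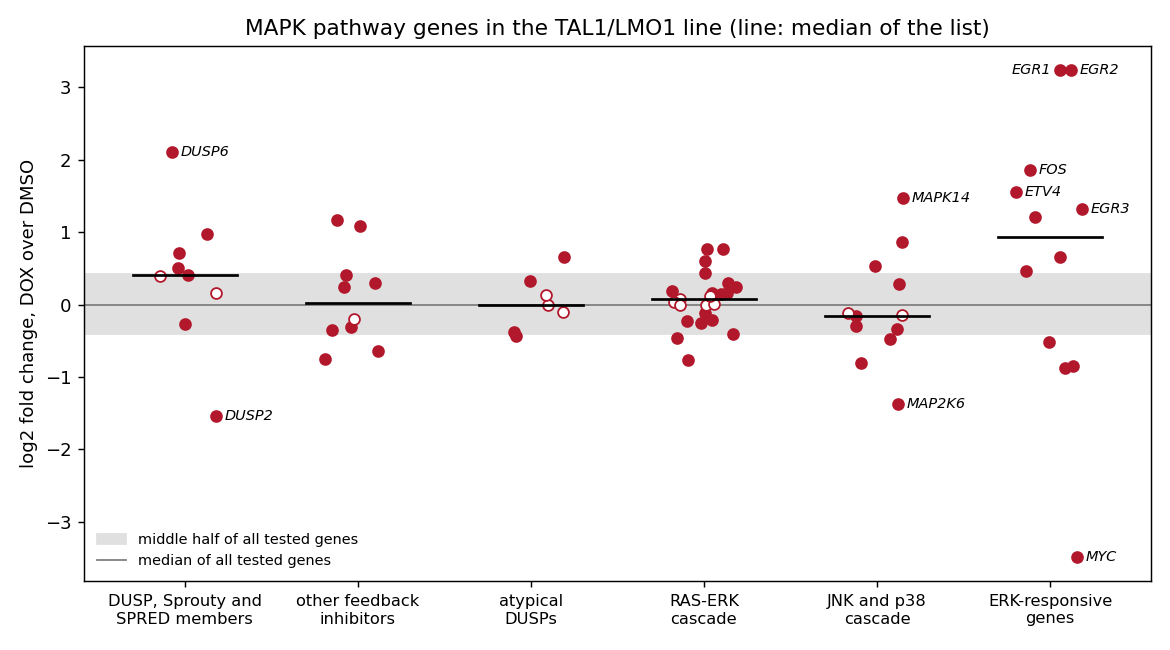
Log2 fold change, DOX over DMSO, in the TAL1/LMO1 line (vertical axis) for every tested gene of the members and 5 pathway lists; filled points have an adjusted p under 0.05, black lines are list medians, and the grey band and line are the middle 50% and the median of all 16287 tested genes. The medians of the members (0.41) and of the ERK-responsive genes (0.93) lie above that of all genes (-0.01).

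The T-cell markers, beside which these changes are read, moved as well. Summed over 9 genes, TLX3 among them, they lay at 2311 to 2338 CPM with DMSO and at 1997 to 2059 CPM with DOX in the TAL1/LMO1 line. Of the 9, 2 were called higher and 5 lower, where 60.2% of all tested genes were called. The sum hides larger changes of single genes. CD3E fell from 405 to 94.2 CPM (log2 -2.10), CD3G from 278 to 153 CPM (log2 -0.86) and CD2 from 4.72 to 0.832 CPM (log2 -2.49). CD3D (log2 -0.23) and LCK (log2 -0.17) fell less. CD5 rose from 165 to 304 CPM (log2 0.88) and CD7 rose by 0.47 on the log2 scale. TLX3 and BCL11B were not called. The summed markers of other cell types were at 1.03 to 1.92 CPM with DMSO and at 1.37 to 1.78 CPM with DOX in that line. The part of the T-cell markers' change in the results was not tested.

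Finally, the genes whose log2 CPM followed DUSP6 and DUSP2 most closely over the 12 libraries were listed, out of 10827 tested genes averaging 5 CPM or more. The libraries fall into 3 lines and 2 treatments, so these correlations describe shared group levels. For DUSP6 they were LMBR1L (Pearson's r 0.983), TTC18 (0.982), FBXL20 (0.980), ZNF440 (0.979) and CLIP3 (0.976). For DUSP2 they were TRBV5-5 (0.994), TRBC2 (0.990), PSMD3 (0.989), ACOT7 (0.989) and ENAH (0.985). TRBV5-5 and TRBC2, segments of the T-cell receptor beta chain, belong to families of near-identical genes, so their counts are uncertain.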

How the data were processed

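Strand-specific libraries of total RNA were sequenced as paired ends, per the labels' protocols. Reads were handled with STAR 2.5.2a, featureCounts and DESeq2 1.12.4 on build hg19, per the submitters' processing notes. The authors deposited raw counts per gene; no source used here gives the counting settings. The authors also deposited a DESeq2 table per line with, per the file headers, a mean normalised signal, a log2 fold change with its SE, a score (the Wald statistic) and p-values.

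Groups came from the sample titles. From the counts, genes were filtered with filterByExpr (16287 kept), scaled by TMM and fitted in edgeR 4.0.16 (R 4.3.3) with quasi-likelihood, robust estimation and 1 mean per group, leaving 6 residual degrees of freedom and a median prior of 66. F tests were two-sided. The SE is the log2 fold change over the square root of F, or the counting error where larger. Totals of 14865073 to 15917713 counts set the precision, and the 3-count floor covers counting error only. Lengths came from GENCODE 29 exons by identifier, on another build than the counts, and promoters from RefSeq, so no coordinates of the counts were used. The procedure was tested on simulated data in which few genes changed, as many up as down. Far more genes were called in the TAL1/LMO1 line, so that test does not cover the scaling of its libraries.

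Named are all members, TAL1 and LMO1, and of each pathway list the called genes with the 4 smallest p-values in the TAL1/LMO1 line plus those called in a single line. The 5 genes most alike were taken for the called member with the largest rise and the one with the largest fall. The members, lists and tests were chosen with earlier results of these data known. Alternatives were other scalings (DESeq2 size factors, total counts), DESeq2 1.42.0, no filter, only the lines compared, a replicate block and leaving out each replicate. No library was left out.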

Additional observations from a re-analysis of the deposited data

Results flagged for a closer look

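The response to DOX of the TAL1/LMO1 line differed from that of a single line for 12 pairs of member and line, by a contrast in edgeR's model with an adjusted p under 0.05. Of all tested genes, 43.8% differed against the TAL1 line and 45.4% against the LMO1 line. Against the TAL1 line, the differences in log2 fold change were -0.445 for DUSP1, -1.383 for DUSP2, 1.017 for DUSP6, 0.592 for DUSP10, 0.441 for SPRY2 and 0.361 for SPRED2. Against the LMO1 line, they were -1.422 for DUSP2, 2.151 for DUSP6, 0.636 for DUSP10, 1.232 for SPRY1, 0.413 for SPRY2 and 0.243 for SPRED2. In the full fit DUSP2, DUSP6, DUSP10, SPRY2 and SPRED2 differed from both single lines, which were compared with the same libraries of the TAL1/LMO1 line. The calls of DUSP1 and DUSP6 against the TAL1 line were lost in some alternative runs. So were those of SPRY2 and SPRED2 against the LMO1 line. Groups of 2 libraries are too small for a search for outlying samples.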

How the results depend on the processing

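No log2 fold change of a member that passed the test changed sign while called under any alternative run. Of 507 values under other scalings, tools, filters and designs, 493 kept their direction and their side of the threshold, 11 lost the call and 1 gained it. Values to which DESeq2 gave no adjusted p are left out of the 507. Among those left out is DUSP6 in the TAL1 line, which edgeR called. Of 540 values with 1 replicate left out, 470 kept both, 38 lost the call and 3 gained it. The rest, 2 and 29 values, changed sign without being called under either setting. In the TAL1/LMO1 line, DUSP6, DUSP2, DUSP10, SPRY2 and SPRED2 kept their calls without any 1 replicate, with log2 fold changes of 2.02 to 2.17, -1.64 to -1.49, 0.65 to 0.74, 0.44 to 0.55 and 0.35 to 0.44.

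Leaving out 1 replicate gave 5 to 7 called members in the TAL1/LMO1 line, 0 to 1 in the TAL1 line and 0 in the LMO1 line. It gave 2 to 4 departures from the sum of single responses, and 100 to 155 called genes in the TAL1 line and 155 to 284 in the LMO1 line, where the full fit called 299 and 349. DESeq2 called 0 members in the TAL1 line, 1 departure from the sum, 228 genes in the LMO1 line, 0 further feedback inhibitors in the TAL1 line and 0 ERK-responsive genes in the LMO1 line. In these counts a missing adjusted p stands as no call. In the TAL1 and LMO1 lines, SPRED2 alone of the tested members had an adjusted p with DESeq2. Without the filter, 2 departures from the sum were called. Fitting only the compared lines called 523 genes in the TAL1 line. DESeq2's size factors in edgeR left 0 called genes of the RAS-ERK cascade in the TAL1 line. With total counts the calls of all genes in the TAL1 line split into 216 higher and 57 lower, beside 160 and 139. In the TAL1/LMO1 line they split into 5611 higher and 4277 lower, beside 4644 and 5168. The cause of these shifts was not tested.

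Same-numbered replicates deviated together with correlations of -0.083 to 0.127 over 15 pairs of groups, 5 of them over 0.1. The sample titles give a replicate number and no batch, and whether same-numbered samples shared a batch was not tested. With a replicate block, 7, 1 and 0 members were called in the TAL1/LMO1, TAL1 and LMO1 lines, as without it, and 9885 genes in the TAL1/LMO1 line. Depth limits DUSP4 (at most 29 counts in a library) and SPRY1 in the TAL1/LMO1 line.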
